A study of Mus musculus with 4 samples.

Results

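The p53 and senescence genes described here are 10 genes of mouse chondrocytes: the INK4 cell cycle inhibitors Cdkn2a, Cdkn2b and Cdkn2c, the CDK inhibitor Cdkn1a, Trp53 with its negative regulators Mdm2 and Mdm4, and the p53 target genes Ccng1, Gdf15 and Bax. They were taken by gene symbol, and each matched exactly 1 row of the 55141 genes with a TPM value and of the 55450 genes with a read count. The RNA came from articular chondrocytes released from the femoral heads of mice of 3 weeks of age by collagenase digestion, grown to confluency and, by the study's methods for its Cart-miR-23clus KO experiment, replated before RNA extraction, and was sequenced from the 3′ ends of mRNAs. There were 4 libraries, 1 for each condition: chondrocytes labelled WT, chondrocytes lacking the miR-23a and miR-23b clusters in cartilage (Cart-miR-23clus KO, labelled Cart-miR-23-KO), miR-26a KO chondrocytes, and miR-26a KO chondrocytes transfected with a double-stranded miR-26a mimic. Each condition having 1 library, conditions could not be tested against each other, no p-value is given, and every difference below is a difference between libraries that has no replicate check.

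The groups have limits as models. The Cart-miR-23clus KO animals carry floxed miR-23a and miR-23b clusters cut by a Cre recombinase under the Col2a1 promoter, so deletion depends on cells that have expressed Col2a1. The labels give the comparison library the genotype wild type, while the study's own account of the RNA data uses both wild type and Control for these cells, and its methods define Control mice as animals with floxed clusters and without the deletion. The protocol names a negative control siRNA for miR-26a KO cells, and whether the library of miR-26a KO received it is not stated. The number of animals behind each culture is not stated. The libraries hold polyadenylated mRNA, so the deleted miRNAs themselves give no check of the labels.

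The INK4 proteins bind CDK4 and CDK6 and keep the RB protein active, which stops cells before DNA replication. Cdkn2a encodes both p16INK4a and, from another first exon and in another reading frame, p19ARF, which binds MDM2 and so releases p53. MDM2 is the ubiquitin ligase that degrades p53 and is itself a p53 target, MDM4 binds p53 and blocks its transcriptional activity, and Cdkn1a, which encodes p21, is the p53 target that inhibits cyclin-dependent kinases. In cartilage p16INK4a is a commonly used marker of chondrocyte senescence, and its mRNA is known to accumulate when cells are kept in culture.

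The miRNAs removed or added in these cultures are shown, except miR-23b-3p, whose mature sequence was not available. Their seeds, bases 2 to 8 in capitals, were used to look for members that could pair with them. Other kinds of pairing and other parts of the mRNAs were not searched, so a member without a match is not shown to lack pairing. The miR-23a and miR-23b clusters each hold a miR-23, a miR-27 and a miR-24. Mature sequences and positions are from RefSeq on GRCm38.p6.
miR-23a-3p, chr8:84208563-84208583: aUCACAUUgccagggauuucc
miR-27a-3p, chr8:84208727-84208747: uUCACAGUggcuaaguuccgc
miR-27b-3p, chr13:63300760-63300780: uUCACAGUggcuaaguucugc
miR-24-3p, chr8:84208875-84208896 and chr13:63301251-63301272: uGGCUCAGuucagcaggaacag
miR-26a-5p, chr9:119031811-119031832 and chr10:126995543-126995564: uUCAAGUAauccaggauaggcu
miR-27a and miR-27b share their seed, and miR-24-3p and miR-26a-5p are each made from a pair of loci with the same mature sequence.

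Matches to these seeds were sought in the longest annotated 3′ UTR of each gene, on the transcribed strand. The match to miR-23 (AATGTGA) was found in 2 members, Mdm4 and Ccng1, and in 15.3% of 20661 genes. The match to miR-27 (ACTGTGA) was found in 3 members, Cdkn2b, Mdm4 and Ccng1, and in 16.3% of all genes. The match to miR-24 (CTGAGCC) was found in 0 members and in 16.5% of all genes, and the match to miR-26a (TACTTGA) in 1 member, Mdm2, and in 9.83% of all genes. The matches are printed with 8 bases on either side, 5′ to 3′ on the minus strand of GRCm38, with the match in capitals, for the 4 members that hold one.
Cdkn2b, miR-27, chr4:89306470-89306492: tccactaaACTGTGAcccacagt
Mdm4, miR-23, chr1:132991483-132991505: cttttataAATGTGAcccattgc
Mdm4, miR-27, chr1:132988331-132988353: ctttagatACTGTGActgttatt
Ccng1, miR-23, chr11:40750471-40750493: caacaagcAATGTGAcccatata
Ccng1, miR-23, chr11:40749550-40749572: aagacataAATGTGAaataaaac
Ccng1, miR-27, chr11:40749537-40749559: gaaataaaACTGTGAaccttcat
Mdm2, miR-26a, chr10:117689849-117689871: tacagaagTACTTGAtttctgtt
The last pair of Ccng1 windows overlap, and their matches are followed by an A, which makes them matches of the 8-base kind. A match is a description of the letters and not a site shown to be used. The matches in Mdm4 lie in its longest annotated 3′ UTR, 5436 bases long, and Mdm4 has 5 annotated 3′ ends, so transcripts that end elsewhere need not carry them.

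Reads assigned to genes with TPM numbered from 1328042 to 1498579 per library, and 76.45% to 83.24% of reads aligned in the 3 libraries whose totals are given. At this depth 3 reads, the most that a count of 0 allows, corresponded to 2.00 to 2.26 reads for each 1000000 counted (CPM), and each of the 10 genes lay above that in every library. All 12 chondrocyte markers were detected in every library, with a summed level of 39660 CPM in WT and 29577 to 30422 CPM in the other 3 libraries, and the 5 erythroid markers were at 0. The cultures were not pure. The summed level of 10 osteoblast markers was 35004 CPM in WT, 16586 in miR-26a KO, 19188 with the mimic and 8604 in Cart-miR-23clus KO, where Dmp1 and Ifitm5 were at 0. The 12 macrophage markers summed to 815, 281, 520 and 953 CPM in the same order, with Ptprc at 0 in miR-26a KO. The 8 fibroblast and smooth muscle markers summed to 321, 489, 587 and 665 CPM, with Myh11 at 0 in all 4 libraries, and the 5 adipocyte markers to 69.4, 82.2, 99.4 and 266 CPM. In bulk RNA a lower share of a cell type and less RNA of a gene per cell cannot be told apart.

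**Figure D1:**
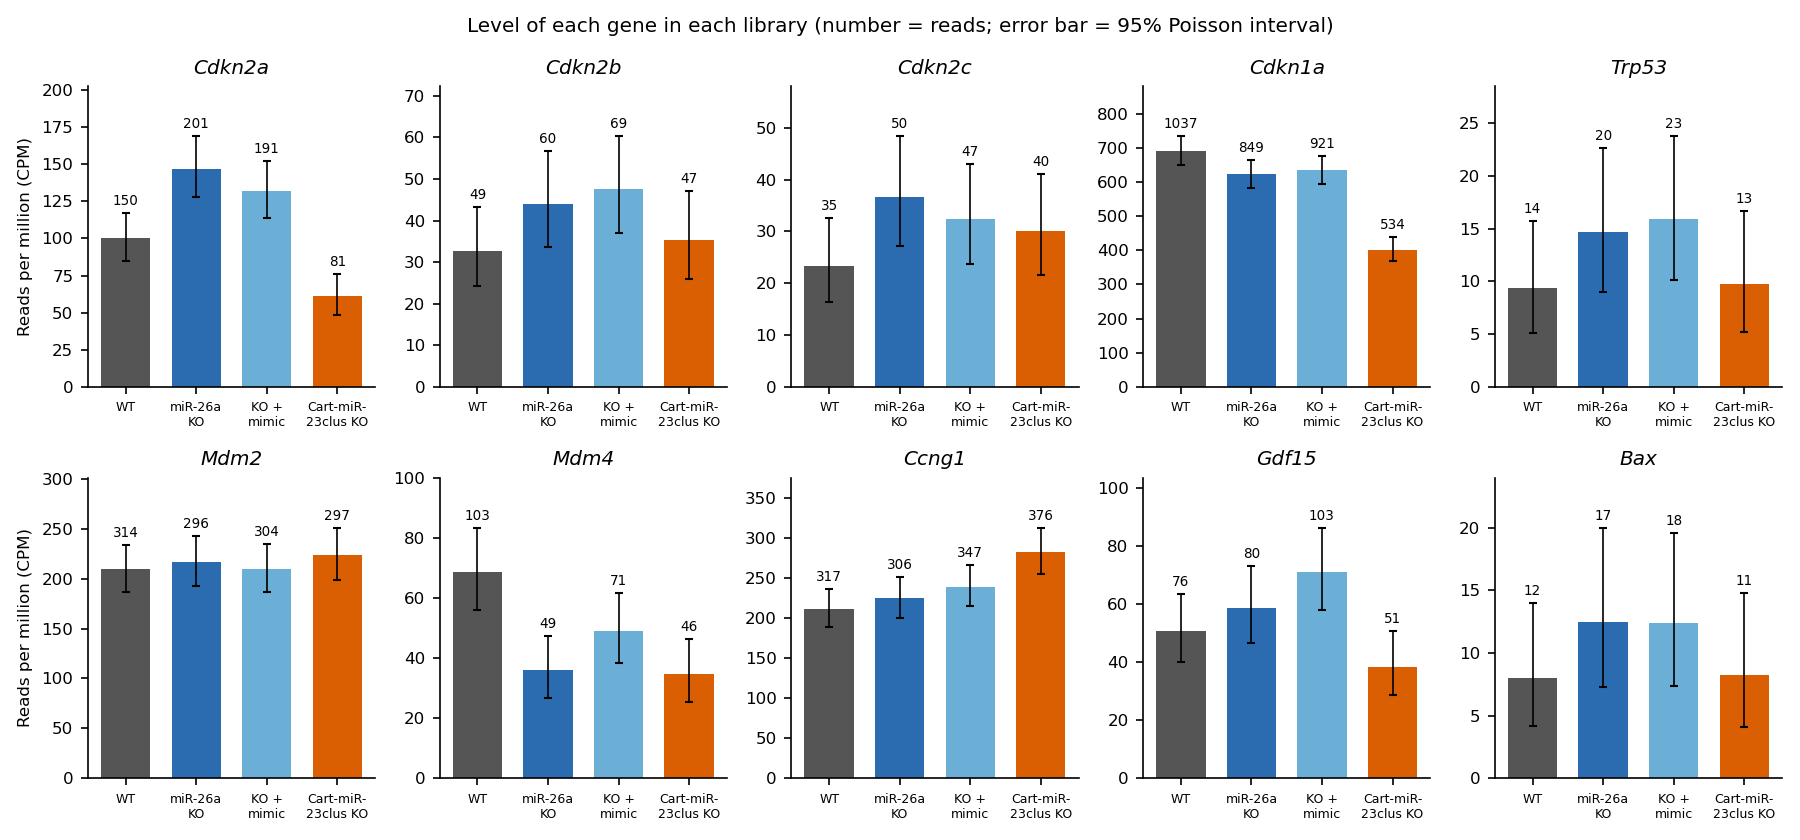
Level of each of the 10 genes in the 4 libraries, in CPM on the vertical axis from 0, with the number of reads above each bar and exact 95% Poisson intervals as error bars. Cdkn2a ran from 61.0 CPM in Cart-miR-23clus KO to 147 in miR-26a KO, Cdkn1a was lowest in Cart-miR-23clus KO at 402 CPM, Mdm4 was highest in WT at 68.7 CPM, and Mdm2 stayed between 210 and 224 CPM.

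Cdkn1a was the most abundant of the 10 mRNAs in every library by TPM and by reads. On the TPM scale, which divides by gene length, Cdkn1a stood at 1036 in WT, 932 in miR-26a KO, 944 with the mimic and 587 in Cart-miR-23clus KO, within the top 0.877% to 1.68% of genes with TPM above 0. Cdkn2a was the second in 3 libraries, at 169 TPM in WT, 248 in miR-26a KO and 220 with the mimic, and the fourth in Cart-miR-23clus KO at 100 TPM, behind Ccng1 at 113 and Mdm2 at 101. Trp53 itself had the lowest TPM in 3 libraries, from 7.56 to 12.7 over the 4, and was above Mdm4 only in miR-26a KO (11.9 against 11.0 TPM). The neighbouring levels of Mdm2 and Ccng1, 97.0 and 86.4 TPM in WT, and of Cdkn2c and Bax, 13.6 and 14.3 TPM in WT, changed order between libraries. Because reads of 3′ libraries do not scale with gene length, the order by TPM is less secure than a ratio of 1 gene between libraries, in which the length cancels.

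Of the 10 genes, Cdkn2a varied most between libraries. Its highest CPM was 2.42 times its lowest, against 1.98 for Mdm4, 1.85 for Gdf15, 1.72 for Cdkn1a, 1.70 for Trp53 and 1.07 for Mdm2. Cdkn2a, Cdkn1a, Mdm4 and Gdf15 had their lowest CPM in Cart-miR-23clus KO, and the other 6 genes in WT. The spread of a gene over 4 libraries includes counting error, which is wide for Trp53, with 13 to 23 reads, and for Bax, with 11 to 18 reads.

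Cart-miR-23clus KO against WT is the comparison for which the study made these libraries: which mRNAs differ in chondrocytes without the miR-23a and miR-23b clusters. The clearest differences among the members were lower Cdkn1a, Cdkn2a and Mdm4 and higher Ccng1 in Cart-miR-23clus KO. No member had a TPM ratio above 2, the threshold of the study, where 4.73% of the 9573 genes with at least 20 reads in the 2 libraries together did. A TPM ratio below 0.5 was found for 1 member, Mdm4, against 4.38% of all genes. Exact 95% intervals, which cover counting error only and refer to the ratio of CPM, lay above 1 for 1 member (13.1% of all genes), below 1 for 3 members (10.7% of all genes) and included 1 for 6. The members had a median of 138 reads in the 2 libraries together and all genes 92.0, so that an interval excludes 1 more easily for members than for the median gene. The median log2 TPM ratio of the members was 0.02 and that of all genes -0.02.

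Cdkn2a (ENSMUSG00000044303), whose products act on CDK4 and CDK6 and on MDM2, had 150 reads (100 CPM) in WT and 81 reads (61.0 CPM) in Cart-miR-23clus KO. Its TPM ratio was 0.595 and its CPM ratio 0.609, with an interval of 0.459 to 0.804, and 8.29% of all genes had a ratio as low. Cdkn2b (ENSMUSG00000073802), which encodes p15INK4b and lies 11645 bases from Cdkn2a on the same strand of chromosome 4 (chr4:89306299-89311039 beside chr4:89274471-89294653), had 49 and 47 reads, or 32.7 and 35.4 CPM, and a CPM ratio of 1.08 (0.710 to 1.65). Cdkn2c (ENSMUSG00000028551), which encodes p18INK4c and lies elsewhere on that chromosome (chr4:109660876-109667189), had 35 and 40 reads and a CPM ratio of 1.29 (0.799 to 2.09). The intervals of Cdkn2b and Cdkn2c include 1 and reach to either side of it, so a difference of either gene was not detectable at this depth.

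The reads of Cdkn2a cannot be divided between p16INK4a and p19ARF. The transcript for p16INK4a begins with the exon at chr4:89281986-89282192 and that for p19ARF with the exon at chr4:89294334-89294653, but they share the exon at chr4:89276645-89276985 and end in overlapping last exons up to chr4:89274774, where 3′ reads fall. The values above are therefore of the 2 transcripts together.

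Cdkn1a (ENSMUSG00000023067, chr17:29090976-29100727), the p21 gene, had 1037 reads (692 CPM) in WT and 534 reads (402 CPM) in Cart-miR-23clus KO. The TPM ratio was 0.567 and the CPM ratio 0.581, with an interval of 0.522 to 0.646, the narrowest among the members in this comparison, and it lay above the threshold of 0.5. The level in Cart-miR-23clus KO stood apart: the other 3 libraries held 623 to 692 CPM. In the same libraries Col3a1, a fibrillar collagen, had the pattern nearest to that of Cdkn1a among 6822 genes with at least 100 reads over the 4 libraries, at a distance of 0.052 on the centred log2 TPM scale, followed by Tent5a and Plekho2 at 0.068 each. The summed osteoblast markers were also lowest in Cart-miR-23clus KO. Against WT, 7 of their 9 measured genes had intervals below 1 there (10.7% of all genes) and 1 above (13.1%). Of 12 chondrocyte markers, 7 had intervals below 1 and 3 above in the same comparison, with a median of -0.27. The part of these markers in the level of Cdkn1a was not tested.

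Mdm4 (ENSMUSG00000054387, chr1:132959484-133030561), the p53 inhibitor, had 103 reads (68.7 CPM) in WT and 46 reads (34.6 CPM) in Cart-miR-23clus KO. Its TPM ratio of 0.492 was below 0.5, but its CPM ratio was 0.504, with an interval of 0.348 to 0.720, so the call past the threshold rests on the scale. The related Mdm2 (ENSMUSG00000020184, chr10:117688875-117710758) had 314 reads (210 CPM) and 297 reads (224 CPM), and its CPM ratio was 1.07 (0.908 to 1.25). Trp53 (ENSMUSG00000059552, chr11:69580359-69591873) had 14 and 13 reads, and its CPM ratio of 1.05 (0.453 to 2.40) leaves the direction unknown.

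The p53 target genes did not share a direction. Ccng1 (ENSMUSG00000020326, chr11:40748552-40755311), which encodes cyclin G1, had 317 reads (212 CPM) in WT and 376 reads (283 CPM) in Cart-miR-23clus KO, with a TPM ratio of 1.31 and a CPM ratio of 1.34 (1.15 to 1.56), while Cdkn1a was lower. Ccng1 is the member with the most matches, 2 for miR-23 and 1 for miR-27. Mdm4, which carries 1 of each, was lower in the same library. Cdkn2b, with 1 for miR-27, had a CPM ratio of 1.08 (0.710 to 1.65). A link between matches and these levels was not tested. Gdf15 (ENSMUSG00000038508, chr8:70629393-70632456), a secreted stress cytokine, had 76 and 51 reads and a CPM ratio of 0.757 (0.520 to 1.09). Bax (ENSMUSG00000003873, chr7:45461697-45466898), which encodes a pore-forming protein of apoptosis, had 12 and 11 reads and a CPM ratio of 1.03 (0.414 to 2.56). Neither Gdf15 nor Bax differed beyond counting error.

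**Figure D2:**
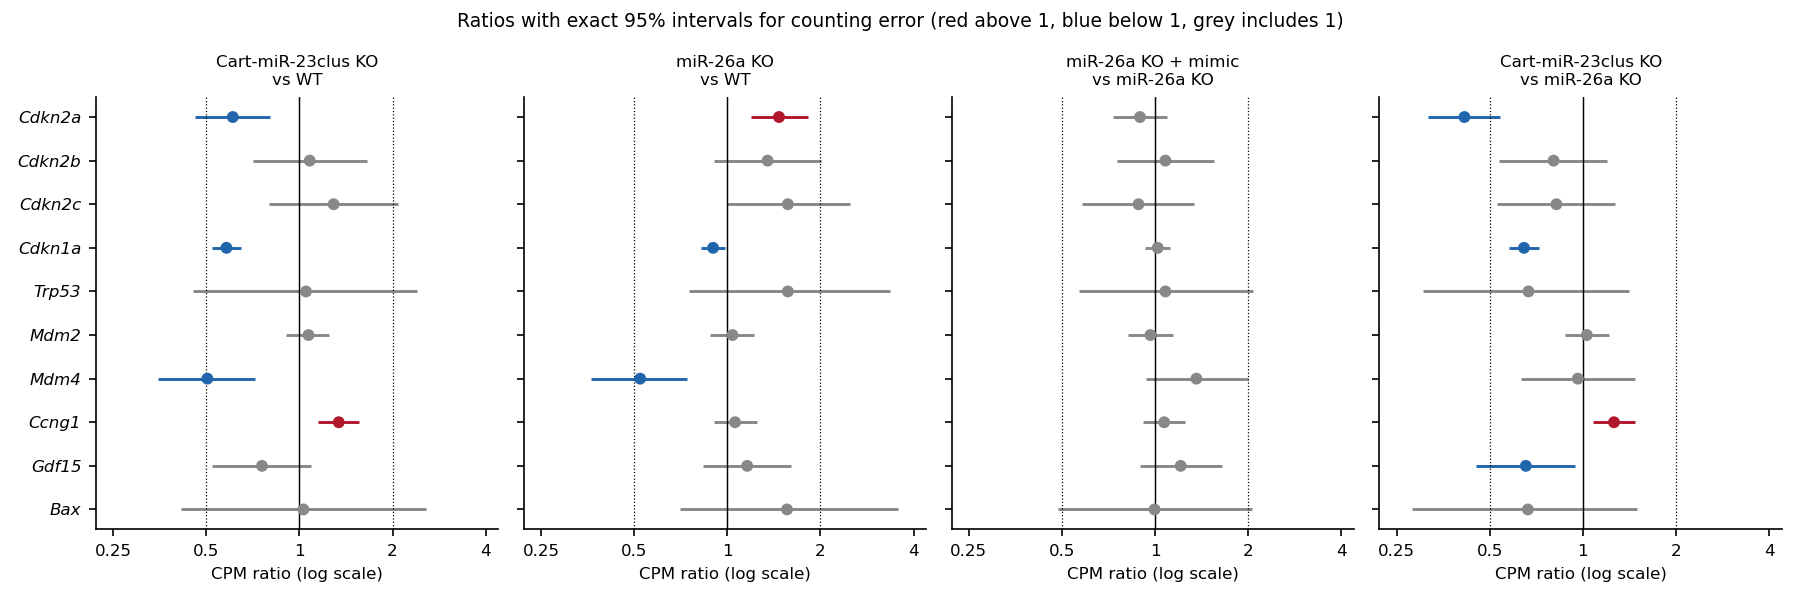
CPM ratios of the 10 genes in the 4 comparisons, on a log scale, with exact 95% intervals for counting error as horizontal lines; dotted lines mark ratios of 0.5 and 2. Intervals that exclude 1 are coloured, namely Cdkn2a, Cdkn1a, Mdm4 and Ccng1 in Cart-miR-23clus KO against WT, Cdkn2a, Cdkn1a and Mdm4 in miR-26a KO against WT, none with the mimic, and Cdkn2a, Cdkn1a, Ccng1 and Gdf15 in Cart-miR-23clus KO against miR-26a KO.

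In miR-26a KO against WT, Cdkn2a was higher and Mdm4 lower, and Cdkn1a differed little. This comparison uses the same WT library, so its values stand beside those of Cart-miR-23clus KO and are no second measurement of WT. None of the 10 genes was above a TPM ratio of 2 (3.88% of the 9545 genes with 20 reads or more) and none was below 0.5 (3.50% of all genes). The interval lay above 1 for 1 member, against 11.2% of all genes, and below 1 for 2 members, against 8.55%. The median log2 TPM ratio was 0.31 over the members and 0.02 over all genes, and 8 of the members had a ratio above 1, 7 of them with an interval that includes 1.

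Cdkn2a had 201 reads (147 CPM) in miR-26a KO against 150 reads (100 CPM) in WT, a ratio of 1.47 (1.19 to 1.83), and 87.9% of all genes had a lower ratio. Cdkn2b had 60 reads (44.0 CPM) against 49 (32.7 CPM), a CPM ratio of 1.35 (0.908 to 2.01), and Cdkn2c had 50 reads (36.7 CPM) against 35 (23.4 CPM), a ratio of 1.57. The interval of Cdkn2c, 1.000 to 2.49, just included 1. These 3 INK4 genes thus had a CPM above WT, and among them counting error was exceeded for Cdkn2a alone. Trp53, with 20 against 14 reads, and Bax, with 17 against 12 reads, had ratios of 1.57 (0.755 to 3.36) and 1.56 (0.701 to 3.57), at least as large as that of Cdkn2a and not distinguishable from 1.

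Mdm4 had 49 reads (36.0 CPM) in miR-26a KO against 103 (68.7 CPM) in WT, a ratio of 0.522 (0.364 to 0.742). Mdm2, the only member with a match to miR-26a, had 296 against 314 reads and a ratio of 1.04, with an interval of 0.881 to 1.22. Cdkn1a had 849 against 1037 reads, a ratio of 0.899 (0.821 to 0.987). Ccng1 (1.06, 0.904 to 1.25) and Gdf15 (1.16, 0.835 to 1.61) had intervals that include 1. Of 12 chondrocyte markers, 9 had intervals below 1 in this comparison (8.55% of all genes) and 1 above (11.2%), with a median of -0.48. The macrophage markers, 281 CPM in miR-26a KO against 815 in WT, and the osteoblast markers, 16586 against 35004 CPM, were lower in sum. The part of these markers in the ratios of the members was not tested.

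The mimic library was set against miR-26a KO to ask what the miR-26a mimic changed in these cells. No member differed beyond counting error. All 10 intervals included 1, none of the members had a TPM ratio above 2 (1.89% of 9471 genes) or below 0.5 (1.46%), and over all genes 5.45% of intervals lay above 1 and 4.77% below. The member with the largest difference was Mdm4, with 71 reads (49.0 CPM) with the mimic and 49 (36.0 CPM) without, a CPM ratio of 1.36 (0.934 to 2.00), and its level in the mimic library lay between those of miR-26a KO and WT. Cdkn2a had 191 reads (132 CPM) against 201 (147 CPM), a CPM ratio of 0.894 (0.729 to 1.09), so that the 2 miR-26a KO libraries held the 2 highest levels of this gene. Mdm2 had 304 against 296 reads, a CPM ratio of 0.966 (0.820 to 1.14).

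Cdkn1a had 921 against 849 reads, a CPM ratio of 1.02 with the narrowest interval of this comparison, 0.928 to 1.12. Gdf15 reached its highest level of the 4 libraries with the mimic, 103 reads (71.1 CPM) against 80 (58.7 CPM), but the CPM ratio of 1.21 had an interval of 0.895 to 1.64. The CPM ratios of Cdkn2b (1.08), Cdkn2c (0.884), Trp53 (1.08), Ccng1 (1.07) and Bax (0.996) all had intervals that include 1, the widest that of Bax, 0.484 to 2.06.

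The largest difference of any member lay between the 2 knockouts. Cdkn2a was at 61.0 CPM in Cart-miR-23clus KO and at 147 CPM in miR-26a KO, a TPM ratio of 0.404 and a CPM ratio of 0.414 (0.315 to 0.538), and 1.71% of all genes had a ratio as low. It was the only 1 of 10 members below 0.5, against 3.43% of the 9453 genes compared, and no member was above 2, against 3.99%. Intervals lay below 1 for Cdkn2a, Cdkn1a and Gdf15, 3 members against 9.24% of all genes, and above 1 for 1 member, Ccng1, against 9.39%. This comparison holds no WT library and shares its libraries with the comparisons above, so its values follow in part from theirs. The markers of other cells differed between these libraries too, with 953 CPM of macrophage markers against 281 and 8604 CPM of osteoblast markers against 16586, and their part in the ratios of the members was not tested.

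Cdkn1a had a CPM ratio of 0.645 (0.578 to 0.720) between the knockouts and Gdf15 of 0.654 (0.451 to 0.941), whereas Ccng1 had 1.26 (1.08 to 1.47). Mdm4, lower than WT in each knockout, did not differ detectably between them, with 46 and 49 reads and a CPM ratio of 0.963 (0.630 to 1.47). Mdm2 had a CPM ratio of 1.03 (0.874 to 1.21). The median log2 TPM ratio was -0.47 over the members and -0.05 over all genes.

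**Figure D3:**
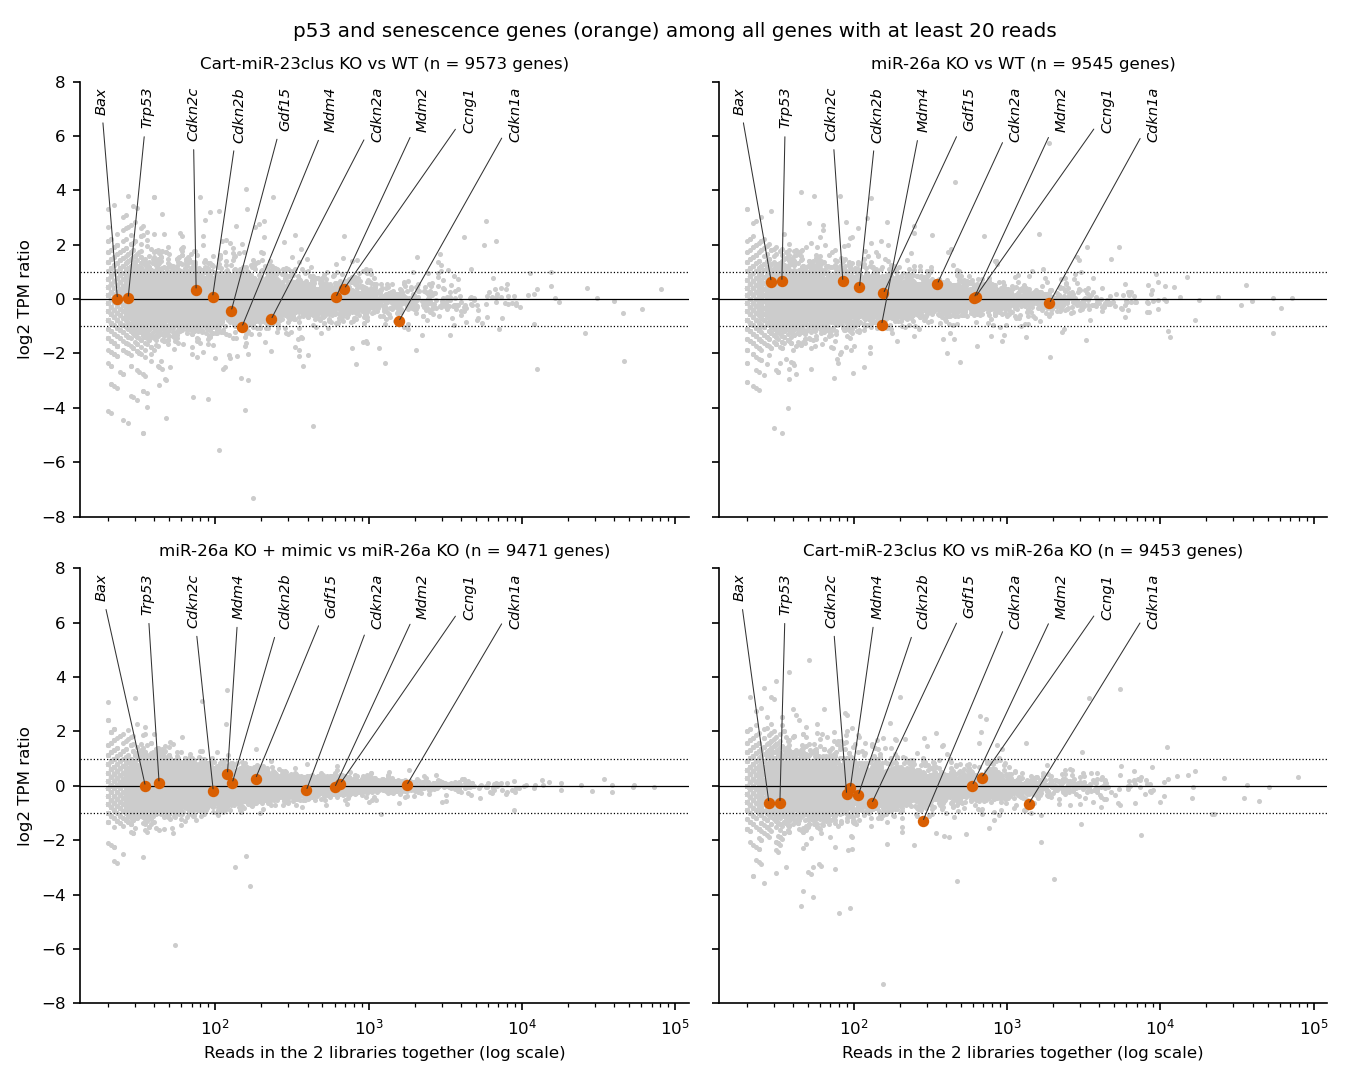
Log2 TPM ratio against reads in the 2 libraries together (log scale) for every gene with at least 20 reads, in the 4 comparisons; grey points are all genes, orange points the 10 p53 and senescence genes, and dotted lines mark ratios of 2 and 0.5. Most members lie within the dotted lines, Mdm4 lies at the lower line in Cart-miR-23clus KO against WT, and Cdkn2a lies below it in Cart-miR-23clus KO against miR-26a KO.

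Ratios of 2 genes within a library do not depend on how libraries are scaled to each other, and they were computed for pairs of related members after the levels had been seen. Of the reads of Mdm4 and Mdm2 together, Mdm4 took 24.7% in WT (exact 95% binomial interval 20.6 to 29.1), 14.2% in miR-26a KO (10.7 to 18.3), 13.4% in Cart-miR-23clus KO (9.99 to 17.5) and 18.9% with the mimic (15.1 to 23.3). The intervals of the knockouts without mimic lay below that of WT, and that of the mimic library overlapped all 3 others. Cdkn2a took 75.4% of the reads of Cdkn2a and Cdkn2b in WT (68.8 to 81.2), 77.0% in miR-26a KO (71.4 to 82.0), 73.5% with the mimic (67.7 to 78.7) and 63.3% in Cart-miR-23clus KO (54.3 to 71.6). The last interval overlapped those of WT, miR-26a KO and the mimic library.

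Of the reads of the p53 targets Cdkn1a and Ccng1 together, Cdkn1a took 76.6% in WT (74.2 to 78.8), 73.5% in miR-26a KO (70.9 to 76.0), 72.6% with the mimic (70.1 to 75.1) and 58.7% in Cart-miR-23clus KO (55.4 to 61.9). Only the interval of Cart-miR-23clus KO stood clear of the others. Against Mdm2, another target of p53, the share of Cdkn1a was 76.8%, 74.1%, 75.2% and 64.3% in the same order. Among the summed reads of these 3 INK4 genes (Cdkn2a, Cdkn2b and Cdkn2c), 234 in WT, 311 in miR-26a KO, 307 with the mimic and 168 in Cart-miR-23clus KO, Cdkn2a made up 62.2% to 64.6% in the first 3 of these libraries and 48.2% in Cart-miR-23clus KO.

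**Figure D4:**
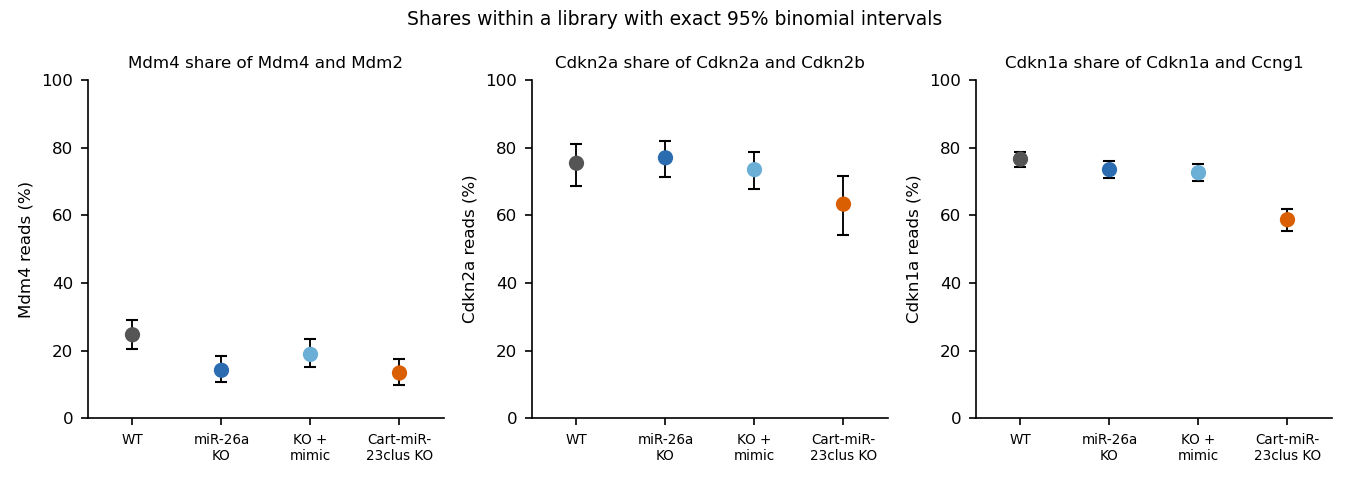
Share of reads, in percent on an axis from 0 to 100, that Mdm4 took of Mdm4 and Mdm2, Cdkn2a of Cdkn2a and Cdkn2b, and Cdkn1a of Cdkn1a and Ccng1 in each library, with exact 95% binomial intervals as error bars. The Mdm4 share was 24.7% in WT and 13.4% to 18.9% in the other libraries, and the Cdkn1a share was 58.7% in Cart-miR-23clus KO and 72.6% to 76.6% in the others.

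The genes around the members were read from lists. Of 34 further p53 target genes, 28 had at least 20 reads in Cart-miR-23clus KO and WT together, with a median log2 TPM ratio of 0.01 against -0.02 for all genes, or 0.18 when each library had to hold 20 reads. Their intervals lay above 1 for 5 genes (13.1% of all genes), below 1 for 2 (10.7% of all genes) and included 1 for 21, counts near those shares. Btg2, an antiproliferative gene, had 160 reads in Cart-miR-23clus KO and 67 in WT, a TPM ratio of 2.63 (2.01 to 3.64), Sesn2, a stress-inducible regulator of mTORC1, had 76 and 41 reads and 2.04 (1.41 to 3.14), and Gadd45a, a stress sensor of the cell cycle, had 1.60 (1.17 to 2.33). The median of 27 such targets in miR-26a KO against WT was 0.21 against 0.02, with 3 intervals above 1, near the 11.2% of all genes, and 1 below (8.55% of all genes), and Phlda3, an inhibitor of AKT, had a ratio of 1.73 (1.27 to 2.37). With the mimic 25 of 27 intervals included 1, with 1 above (5.45% of all genes) and 1 below (4.77%), and between the knockouts 3 lay above 1 and 5 below, against 9.39% and 9.24% of all genes.

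Of 22 regulators of p53, 17 could be compared in Cart-miR-23clus KO against WT, with a median of 0.16, 4 intervals above 1 (13.1% of all genes) and 2 below (10.7%). The 2 below were those of the ribosomal protein genes Rpl5, at 0.832 (0.752 to 0.966), and Rpl23, at 0.857 (0.822 to 0.939). Rpl11, also a ribosomal protein gene of this list, went the other way, at 1.05 (1.02 to 1.14). Ep300, a coactivator and acetyltransferase of p53, had a ratio of 2.20 (1.38 to 3.77) and Daxx, a partner of MDM2, 1.55 (1.11 to 2.29), while Atm, a kinase of the DNA damage response, had 1.45 with an interval that includes 1 (0.888 to 2.53). Their median was 0.09 in miR-26a KO against WT, with 1 interval above 1 (11.2% of all genes) and 3 below (8.55%), and the ratios were 0.484 for Atr (0.293 to 0.781) and 1.73 for Atm (1.05 to 2.88). With the mimic Atm was at 0.488 (0.283 to 0.832), on 23 and 44 reads, and the intervals of 19 of 20 regulators included 1. Between the knockouts 6 of 18 regulators had intervals above 1 and 0 below, where 9.39% and 9.24% of all genes did. An interval excludes 1 more easily with many reads, and all genes had a median of 89.0 reads in this pair together. Cart-miR-23clus KO held 2264 reads of Rpl11 against 2130, 1572 of Rpl23 against 1419, 1245 of Ncl against 1058 and 445 of Rpl5 against 380. Atr, at 1.66 (1.02 to 2.88), and Dyrk2, at 1.46 (1.06 to 2.12), had intervals above 1 on fewer reads. The part of depth in the count of 6 was not tested.

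The other CDK inhibitors and RB pathway genes were a list of 22. Cdk6, the kinase that INK4 proteins bind, had 209 reads in WT, 109 in miR-26a KO, 166 with the mimic and 81 in Cart-miR-23clus KO. Its TPM ratios to WT were 0.427 (0.334 to 0.568) in Cart-miR-23clus KO and 0.573 (0.451 to 0.726) in miR-26a KO, and with the mimic it was 1.42 times miR-26a KO (1.12 to 1.84). Ccnd1, the cyclin D1 gene, had 1276, 1139, 1305 and 538 reads in the same order, so that only Cart-miR-23clus KO was low, with a TPM ratio to WT of 0.464 (0.429 to 0.527). Cdkn2d, the remaining INK4 gene, had TPM ratios of 1.70 (1.18 to 2.47) for miR-26a KO over WT, of 0.635 (0.446 to 0.937) between the knockouts, and of 1.08 (0.734 to 1.67), on 50 and 51 reads, in Cart-miR-23clus KO against WT, where Cdkn2a was lower. The list as a whole had a median of 0.09 in Cart-miR-23clus KO against WT, with 1 interval above 1 (13.1% of all genes) and 5 below (10.7%), and of 0.29 in miR-26a KO against WT, with 4 above (11.2%) and 2 below (8.55%). These medians were -0.03 and 0.08 when each library had to hold 20 reads, and the first was also -0.03 without a filter on reads, so its direction rests on the filter.

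Cdkn1c, the p57 inhibitor, did not meet the rule for named genes in the comparisons with miR-26a KO and was picked out after its values were seen. It had 87 reads (58.1 CPM) in WT, 46 (34.6 CPM) in Cart-miR-23clus KO, 12 (8.80 CPM) in miR-26a KO and 8 (5.52 CPM) with the mimic. Its TPM ratio to WT was 0.151 (0.0755 to 0.279) in miR-26a KO and 0.582 (0.408 to 0.862) in Cart-miR-23clus KO. Cdkn1c was therefore low in both miR-26a KO libraries, where Cdkn2a was high.

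The 12 measured regulators of the Ink4a/Arf locus, mostly Polycomb genes, had a median of 0.01 in Cart-miR-23clus KO against WT, or 0.13 when each library had to hold 20 reads, and of 0.06 in miR-26a KO against WT. In the first comparison 12 of 12 intervals included 1, among them those of the Polycomb gene Bmi1 (1.28, 0.974 to 1.77), the histone demethylase gene Kdm6b (0.578, 0.332 to 1.03) and Ets2 (0.774, 0.530 to 1.18), and in the second 11 of 12 did. The BCL-2 family, to which Bax belongs, had 8 measured genes of 15 and a median of 0.06 in Cart-miR-23clus KO against WT, with 1 interval above 1 (13.1% of all genes), 1 below (10.7%) and 6 that include 1. Bcl2, which restrains BAX, had 22 and 46 reads and a ratio of 0.527 (0.309 to 0.916), and Bad, which promotes apoptosis, had 1.36 (1.10 to 1.78). Bid, an activator of BAX, stood at 0.562 times WT in miR-26a KO (0.320 to 0.961).

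Of 45 genes of the secretory phenotype of senescent cells, 22 had enough reads in Cart-miR-23clus KO against WT, with a median of 0.60 against -0.02 for all genes, 13 intervals above 1 (13.1% of all genes) and 5 below (10.7%). Il6 and Il1b, the cytokines most often used for this phenotype, had 0 reads in all 4 libraries. Where each library held 20 reads or more, the largest ratios were those of the chemokine gene Cxcl12 (7.26, 6.90 to 8.04), the adhesion molecule gene Icam1 (6.77, 4.60 to 10.8) and the inhibitor gene Timp1 (2.89, 2.69 to 3.27), while the collagenase gene Mmp13 had 836 against 1415 reads, and the insulin-like growth factor binding protein gene Igfbp5 had 523 against 841. In miR-26a KO against WT 21 genes had a median of 0.65, with Serpine2 at 2.68 (2.47 to 2.91) and Timp1 at 2.18 (1.97 to 2.42). Of their intervals 10 lay above 1 (11.2% of all genes) and 6 below (8.55%). Some of these genes, such as Ccl7 with 24 reads against 6 and Cxcl5 with 15 against 5 in Cart-miR-23clus KO against WT, met the limit of 20 reads through the knockout in which they were high. The medians were 0.29 and 0.06 without a filter on reads, and 0.29 and 0.58 when each library had to hold 20 reads. Chondrocyte, osteoblast, macrophage, fibroblast and smooth muscle, and adipocyte markers, with the sums given above, also differed between these libraries, and their part in this list was not tested. The medians of the osteoblast markers against WT were -2.37 for Cart-miR-23clus KO and -0.70 for miR-26a KO.

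The 8 nuclear and lysosomal markers of senescence include genes that are known to fall in senescent cells (Lmnb1, Hmgb1, Hmgb2) and others known to rise, so their counts have no common direction. In Cart-miR-23clus KO against WT the median was 0.51, with 5 intervals above 1 (13.1% of all genes) and 0 below. The largest ratio was that of the chromatin protein gene Hmgb2, with 31 reads against 10 and a ratio of 3.41 (1.67 to 8.00). Hmgb2 met the limit of 20 reads through the library in which it was high. When each library had to hold 20 reads, the median was 0.44. Hmgb1 had a ratio of 1.39 with an interval that includes 1 (0.688 to 3.02). Lmnb1, the lamin B1 gene, had 56 reads against 20 and a ratio of 3.08 (1.87 to 5.56), the histone gene H2afx had 1.65 (1.08 to 2.69) and the lysosomal fucosidase gene Fuca1 had 1.50 (1.28 to 1.85). Glb1, the gene of the beta-galactosidase that is stained in senescent cells, had 72 and 85 reads. In miR-26a KO against WT 6 of the 7 measured markers had intervals that include 1, with Lmnb1 at 1.65 (0.906 to 3.06). Markers of other cells also differed between WT and Cart-miR-23clus KO. Osteoblast markers were at 35004 against 8604 CPM, fibroblast and smooth muscle markers at 321 against 665, and adipocyte markers at 69.4 against 266. Their part in this list was not tested.

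The proliferation genes had higher medians than all genes in each knockout against WT. Of 20, 18 were measured in Cart-miR-23clus KO against WT with a median of 0.96, 11 intervals above 1 (13.1% of all genes) and 0 below, among them Rrm2 (2.86, 1.90 to 4.63), Cdc20 (2.44, 1.63 to 3.89) and Birc5 (2.30, 1.71 to 3.28). The median of 18 was 0.81 in miR-26a KO against WT, with 10 above (11.2% of all genes) and 0 below, among them Plk1 (2.78, 1.96 to 4.03), Cdc20 (2.76, 1.83 to 4.27) and Top2a (2.67, 1.90 to 3.80). These comparisons share the WT library. Osteoblast markers, 35004 CPM in WT against 8604 in Cart-miR-23clus KO and 16586 CPM for miR-26a KO, fibroblast and smooth muscle markers, 321 against 665 and 489 CPM, and adipocyte markers, 69.4 against 266 and 82.2 CPM, as well as macrophage markers, 815 against 953 and 281 CPM, differed between the same libraries, and their part in this list was not tested. In miR-26a KO against WT the difference in the fibroblast and smooth muscle sum lay mainly in Prg4, also a gene of superficial articular chondrocytes, at 227 against 67.4 CPM. The median of the fibroblast and smooth muscle markers there was 0.00, or 0.87 when each library had to hold 20 reads, which left Prg4 and Acta2. Between the knockouts the median was -0.15 and 18 of 19 intervals included 1, and with the mimic the median was 0.05 and 18 of 19 included 1. The levels of Cdkn1a and Cdkn2a, which differed between the knockouts, stand beside proliferation genes that differed little between them.

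The integrated stress response, which can induce Gdf15 without p53, was read from 17 genes. In Cart-miR-23clus KO against WT 16 of them had a median of -0.27, with 3 intervals above 1 (13.1% of all genes) and 5 below (10.7%), and Trib3 had a ratio of 0.663 (0.577 to 0.798) and Vldlr of 0.606 (0.490 to 0.783). Sesn2, which belongs to this list as well as to the p53 targets, went the other way with its ratio of 2.04 and was the only gene of the list past the threshold. The median was 0.00 in miR-26a KO against WT and 0.09 with the mimic, with Slc7a11, a cystine transporter gene, at 0.548 (0.330 to 0.907) and Ppp1r15a, a phosphatase regulator gene, at 1.30 (1.04 to 1.65).

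**Figure D5:**
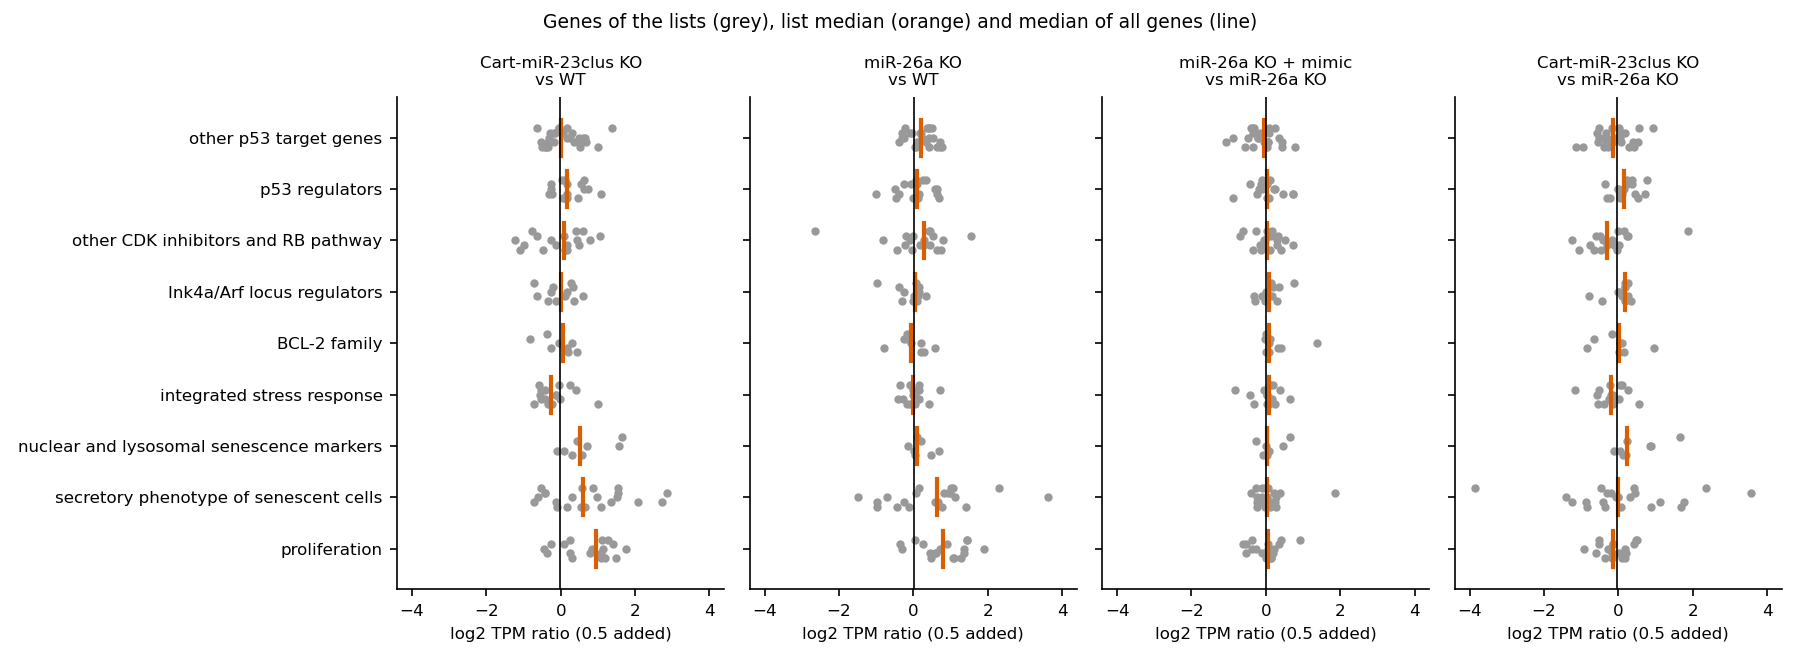
Log2 TPM ratios, with 0.5 TPM added, of the measured genes of 9 lists around the p53 and senescence genes in the 4 comparisons; grey points are genes, orange bars list medians and the vertical black line the median of all genes. The proliferation genes have medians of 0.96 and 0.81 in the knockouts against WT (1.08 and 0.67 with 20 reads in each library). The further p53 targets have medians of 0.01 (0.18 with 20 reads in each library) and 0.21.

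Genes with patterns nearest to those of the members over the 4 libraries were found by the Euclidean distance of centred log2 TPM, among 6822 genes with at least 100 reads in all. For Cdkn2a they were Thbd (distance 0.114), the thrombomodulin gene, with 81, 104, 46 and 103 reads in WT, miR-26a KO, Cart-miR-23clus KO and the mimic library, then Cdr2l (0.126) and the aggrecanase gene Adamts5 (0.128, with 63, 95, 34 and 93 reads). For Mdm4 they were Gulp1 (0.055), Hnrnph1 (0.078) and Gtf2ird1 (0.119), and Hnrnph1, a splicing factor gene, had 73, 36, 35 and 54 reads. For Mdm2 the nearest was Elp2 (0.016), for Ccng1 the phosphatase gene Ppm1a (0.018), for Gdf15 Mall (0.026), for Cdkn2c Ccdc88a (0.037) and for Cdkn2b Dnajc21 (0.049). Trp53 and Bax had under 100 reads in all and were not compared. With 4 points for each gene, near patterns are a description of these libraries.

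Reads of the members could be shared with few other annotated genes. The pseudogenes Trp53-ps and Mdm4-ps, the gene Gm45808 that overlaps Bax and the gene AC167363.2 opposite Cdkn1a had 0 reads in the 3 libraries with read counts. Gm29257, on the strand opposite Mdm4, had 3 reads in WT, 4 in miR-26a KO and 6 in Cart-miR-23clus KO, and since the strand setting of the counting is not given, reads of Mdm4 and of this gene may be mixed to that extent.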

How the data were processed

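RNA of 4 cultures was made by the authors into 3′ mRNA libraries (QuantSeq), read as single-end reads of 75 bases and mapped to mm10. The aligner, counter and annotation are not given in the sources used here. For 3 libraries the authors deposited estimated counts, which are whole reads for each gene and were not normalized, and rows of alignment rates at the end of that file were left out. The deposited TPM values, given for all 4 libraries, divide the reads by a length per gene and were scaled by the authors to a common sum. The 309 genes without TPM, with 0.480% to 0.633% of the reads, were left out of totals. For the mimic library, deposited as TPM alone, reads were rebuilt from the steps between values: 14429 of 14429 values tested were whole within 0.001 reads, 588 genes were not recovered, and the sum was 1449246 reads.

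TPM ratios were called above 2 or below 0.5, as in the study, among genes with at least 20 reads in the 2 libraries together. A library at 0 was set to 3 reads. Exact intervals at 95% (Clopper-Pearson) were taken on the reads, with library totals as offset. They cover counting error only, since reads without molecular identifiers are not independent molecules. List medians are of log2 TPM with 0.5 added.

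The genes named are the 10 members, the 3 genes of each list with the largest change where each library of the pair held 20 reads or more, and the 3 nearest patterns for members with at least 100 reads. Not every gene so chosen is reported here. Cdkn1c, Igfbp5, Glb1, Hmgb1, Hmgb2, Rpl5, Rpl11, Rpl23, Ncl, Prg4, Ccl7, Cxcl5, Il6 and Il1b were picked after their values were seen. So were Mmp13 in the comparison with WT and values of a named gene in a further comparison. The members and lists were chosen with earlier results of these data known. The symbols Lect1 and Rfwd2, older names of Cnmd and Cop1, are not in the tables, and Hbb-bs, Hmgb1 and Rpl23 were matched by identifier. Of 6 endothelial markers, at most 2 had reads in any of the 3 counted libraries. Seed matches and positions are from GENCODE on GRCm38 by gene identifier.

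Alternatives to the TPM ratio were scaling by CPM, by TMM of edgeR (version 4.0.16) and by the size factors of DESeq2 (version 1.42.0) in R 4.3.3. Other filters, intervals at 99% and other values added to TPM were also tried. The steps were tested on simulated data. Scripts ran in Python 3.11.15 with scipy 1.17.1, pandas 2.3.3, numpy 2.4.6 and, for plots, matplotlib 3.10.9.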

Additional observations from a re-analysis of the deposited data

How the results depend on the processing

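Under CPM the number of members past the threshold in Cart-miR-23clus KO against WT was 0 in place of 1, because the ratio of Mdm4 was 0.504. The other 19 counts of members past the threshold, over the 4 comparisons, were within 1.5 times the reported ones under TMM, DESeq2's size factors and the other filters, as were all 20 counts of intervals that exclude 1. With intervals at 99% these counts were 2 in place of 3 in miR-26a KO against WT and 3 in place of 4 between the knockouts. The 120 ratios of members under CPM, TMM and DESeq2's size factors kept within their intervals, and none with an interval that excludes 1 changed direction. The ratio of Bax with the mimic against miR-26a KO, 0.989 by TPM, was 1.00 under TMM. Of the list medians, 31 moved by at least 0.1 on the log2 scale and 193 did not. The offset on the TPM scale and the shares within a library were added after seeing the data. No paired analysis was possible because there is 1 library of each condition, and for the same reason no library could be left out. Depth limits Trp53 and Bax most.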
